A study of Mus musculus with 6 samples.

Results

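The 10 genes described here encode heat shock proteins of the cytosol and the mitochondrion: the small heat shock proteins Cryab, Hspb1 and Hspb8, the HSP70 system members Hspa1a, Hspa8, Hsph1 and Dnajb1, the HSP90 gene Hsp90aa1, and the mitochondrial chaperonin genes Hspd1 and Hspe1. They were chosen by gene symbol from a gene count table of 30438 symbols, and 10 of 10 were found in it. The table holds 6 poly(A)-selected RNA sequencing libraries of HEI-OC1, a line of immortalised mouse auditory cells from the organ of Corti. Libraries fell in 2 groups of 3: HEI-OC1 labelled as a knockout of Nrf2, and HEI-OC1 labelled wild type, called the control here. Nfe2l2 encodes NRF2, which switches on antioxidant and detoxification genes. Cells of both groups grew at 33 °C and 10% CO2 with 10% serum, and the labels record no heat shock and no drug. The sources used here do not give the position of the edit or say whether the knockout line is a single clone. The submitters asked which genes could bear on a stronger cisplatin resistance of the knockout cells, and the comparison made here is knockout against control in untreated culture.

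Heat shock proteins are molecular chaperones that keep other proteins folded or return them to their folded state. Small heat shock proteins hold unfolded clients without using ATP, and HSP70 then binds and releases them in cycles that J proteins such as DNAJB1 start and nucleotide exchange factors such as HSPH1 end. HSP90 acts later, on clients such as kinases and steroid receptors, and in the mitochondrial matrix HSPD1 forms the barrel of a chaperonin whose lid is HSPE1. The transcription factor HSF1 induces many of these genes after heat or proteotoxic stress, by binding inverted repeats of GAA known as heat shock elements. Hspa8 is the HSP70 gene that unstressed cells already transcribe, while Hspa1a is known as an inducible copy. In the inner ear, heat shock proteins are known for protecting hair cells from aminoglycosides and cisplatin.

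The promoter sequences show the element that many of these genes share, and 1 that a divergent gene pair holds in common. RefSeq promoter windows of 300 bases, 250 before and 50 after a start site, were given on the mouse build GRCm38.p6 for 7 of the 10 genes, and Cryab, Hspa8 and Hsp90aa1 had no entry. The letters GAANNTTC or TTCNNGAA, each its own reverse complement, were found in 6 of these 7 genes (85.7%), against 17% of the 27025 genes of the whole table. A longer run with a further GAA or TTC unit at the same spacing of 2 bases, so that the orientation alternates over 3 units, was searched on both strands. It was found in Hspd1, Hspe1 and Hsph1, 3 of 7 (42.9%), against 0.662% of all genes. These longer matches contain the shorter ones, and those of Hspd1 and Hspe1 are the same bases counted for both genes. The set of genes was also chosen for being heat shock genes, so the shares are a description. In the lines that follow, capitals mark the shorter letters wherever they occur, and overlapping matches run together.
Hspe1 and Hspd1, chr1:55088053-55088082, plus strand: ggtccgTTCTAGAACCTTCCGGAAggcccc
Hspa1a, chr17:34972227-34972286, minus strand: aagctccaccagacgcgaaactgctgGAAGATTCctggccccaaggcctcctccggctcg
Hspb1, chr5:135887786-135887845, plus strand: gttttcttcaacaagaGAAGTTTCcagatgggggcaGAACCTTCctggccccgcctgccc
Hsph1, chr5:149636351-149636380, minus strand: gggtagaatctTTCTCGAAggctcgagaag

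The Hspe1 stretch is shown because Hspe1 and Hspd1 are transcribed away from each other, and the same bases lie 89 before the Hspe1 start site and in the window before an Hspd1 start site. Hspa1a is shown because its level was lower in libraries labelled Nrf2 KO, and Hspb1 and Hsph1 because they hold such letters too and were not called. The Dnajb1 windows held 0 matches to the GAA and TTC letters, and in Hspb8 the match lay after the start site. In Hsph1 the run of 3 units lay after the start sites too, outside the printed stretch. In the annotation the stretch shared by Hspe1 and Hspd1 overlaps an exon of an Hspd1 transcript, and the Hsph1 stretch an exon of Hsph1. For the core of the antioxidant response element, the site that NRF2 binds with a small MAF protein, the letters TGACNNNGC were searched on both strands. They were found in Dnajb1 and Hsph1, 2 of 7 genes (28.6%), against 14% of all genes. A match of letters is not a measured binding site.

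The libraries held 29130007, 51285343 and 43246180 counts in the group labelled Nrf2 KO and 38636523, 44098578 and 38945498 in the control, for replicates 1, 2 and 3. Library number 1 stood apart in both groups, on a second principal component that carried 41.2% of the variance, so results are also given without those libraries. Nfe2l2 itself goes against the label: it had 395.7, 235.6 and 204.5 CPM, counts scaled to library size, in libraries labelled Nrf2 KO, against 74.2, 126.5 and 96.7 CPM in the control. Its log2 fold change was 1.49 (SE 0.33, edgeR adjusted p = 0.0456), and the call was lost with upper-quartile scaling, with library size alone and without any single library other than Nrf2 KO replicate 1. A transcript count does not check an edit that leaves the RNA in place. Of the hair cell markers Atoh1, Slc26a5 and Tmc1, and of the prosensory markers Sox2 and Sox10, 0 counts were found in all libraries. The marker calls below stand against 4.83% of all tested genes called higher and 3.45% called lower by edgeR. Of 7 tested fibroblast and mesenchyme markers 5 were higher, with a summed level of 6705 to 8833 CPM in libraries labelled Nrf2 KO and 5635 to 6745 CPM in the control. Col3a1 went the other way, with a mean of 2821 CPM against 4452 CPM in the control. Its log2 fold change was -0.66 (edgeR adjusted p = 0.0920). DESeq2 (19.9% of all genes called) and the fit without both libraries numbered 1 (46.1%) each called 1 of the 7 lower. Of 5 tested supporting and prosensory markers 3 were higher, with sums of 295.3 to 416.2 CPM against 146.3 to 175.5 CPM in the control. Of 2 tested hair cell markers 1 was higher, of 2 leukocyte and 3 neuron and glia markers 1 each was lower, and 0 of 6 epithelial markers could be tested. Both tested endothelial markers, Tek (log2 fold change -1.51) and Vwf (-1.16), were uncalled by edgeR (adjusted p = 0.0730 and 0.124) and called lower by DESeq2 and without both libraries numbered 1. Whether these markers have a part in the results on heat shock genes was not tested. In bulk RNA, fewer cells of a type and less RNA per cell cannot be told apart.

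Of the 10 heat shock genes, 1 rose and 2 fell in libraries labelled Nrf2 KO, and 7 did not pass the test. Cryab was 6.93-fold higher, the inducible HSP70 gene Hspa1a had 0.257 of its control level, and the mitochondrial cochaperonin gene Hspe1 0.507 of its control level. With the quasi-likelihood test of edgeR, adjusted by Benjamini-Hochberg over 14618 tested genes at a threshold of 0.05, 3 of 10 were called, against 8.28% of all tested genes. The share of all genes called was 4.83% for higher and 3.45% for lower. The same 3 genes were called with 3 other scalings (RLE 8.39%, upper-quartile 8.39% and library size alone 8.08% of all genes called), by limma-voom (8.57%), with the replicate block (18.3%) and by DESeq2 (19.9%). With no filter on low counts (4.83% of all genes called) Hspe1 was lost, and a filter of 1 CPM (9.02%) removed Hspa1a. All 10 passed the main filter on low counts. The median log2 fold change of the 10 genes was 0.03, and that of all tested genes 0.04. The CPM of the groups did not overlap for 4 genes, higher in libraries labelled Nrf2 KO for Cryab and Hspb8 and lower for Hspa1a and Hspe1, against 34.2% of all tested genes. Leaving out replicate 1 of the group labelled Nrf2 KO added Dnajb1, giving 2 higher and 2 lower with 30.2% of all genes called. Leaving out both libraries numbered 1 added Dnajb1 and Hsp90aa1 as higher and Hspd1 as lower, giving 3 and 3 with 46.1% of all genes called. Without Nrf2 KO replicate 2 (2.53% of all genes called) or 3 (2.56%) Cryab alone was called, and without control replicate 1 (2.09%), 2 (2.02%) or 3 (1.3%) 0 of the 10 were.

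**Figure D1:**
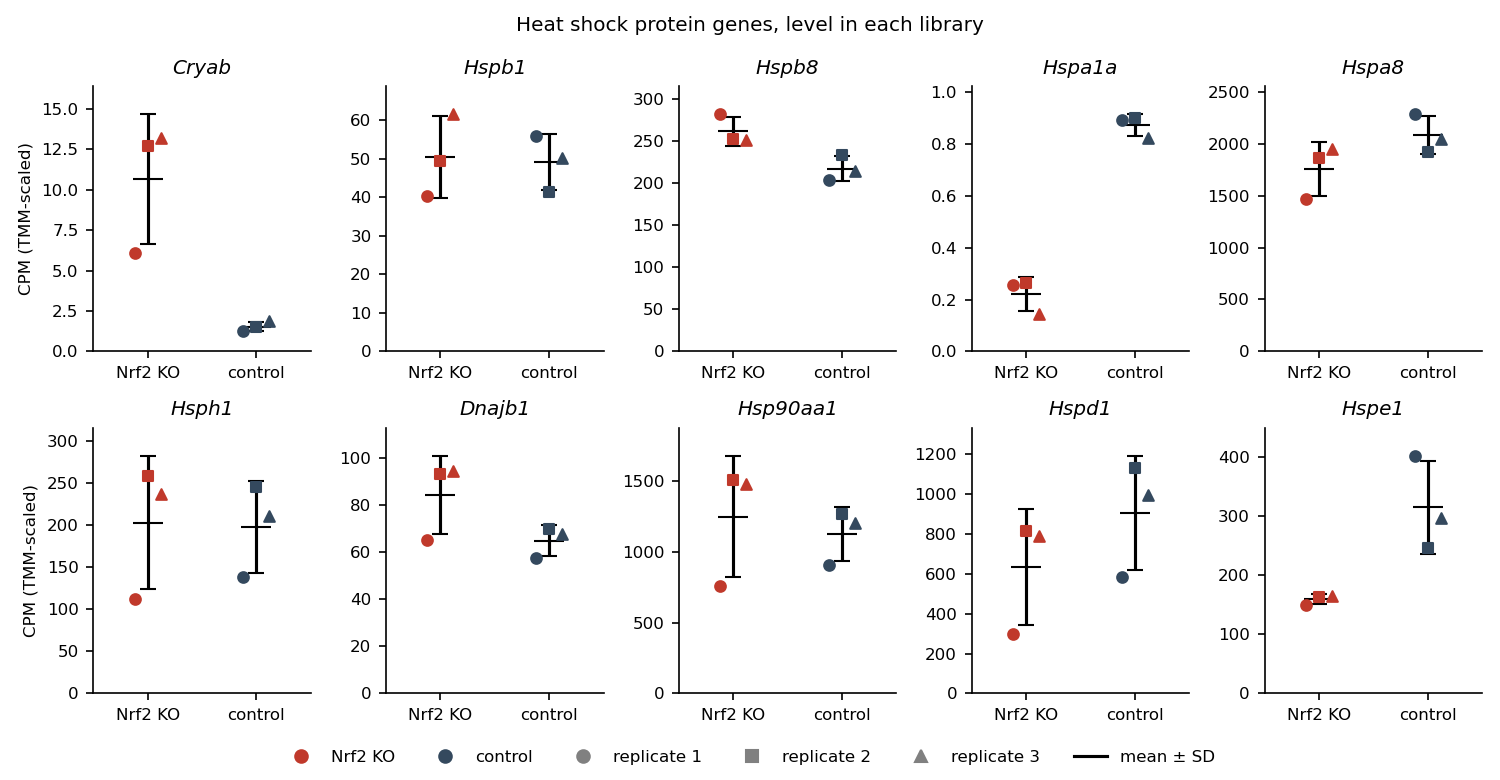
Level of each of the 10 genes in each library, in TMM-scaled CPM, with Nrf2 KO left of control in every panel. Points are libraries, with the shape giving the replicate number, and bars are the mean and SD of 3 libraries; the groups do not overlap for Cryab, Hspb8, Hspa1a and Hspe1.

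Among the small heat shock proteins, Cryab encodes alphaB-crystallin, a chaperone of muscle and lens that also binds intermediate filaments. Cryab had 190, 625 and 544 counts in libraries labelled Nrf2 KO and 50, 66 and 72 in the control, or 6.07, 12.7 and 13.2 CPM against 1.28, 1.48 and 1.86 CPM. Every library labelled Nrf2 KO was above every control library, and replicate 1 was the lowest of its group in both. The mean was 10.7 ± 3.997 CPM against 1.54 ± 0.294 CPM in the control (SD, n = 3 each), with a log2 fold change of 2.79 (SE 0.37, edgeR adjusted p = 0.0102). The log2 difference between libraries of the same number was 2.25, 3.10 and 2.83 for numbers 1, 2 and 3. The call was lost without control replicate 1 (edgeR adjusted p = 0.0643), 2 (0.0666) or 3 (0.0636), while the log2 fold change stayed between 2.61 and 3.07 over the 6 fits that leave out a library. The lowest of these, 2.61, came without Nrf2 KO replicate 3, with an adjusted p of 0.0477 by edgeR.

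Hspb1, which encodes HSP25 in the mouse and acts on actin filaments as well as on unfolded proteins, had 40.3, 49.3 and 61.5 CPM in libraries labelled Nrf2 KO and 55.9, 41.4 and 50.1 CPM in the control. The groups overlapped, and number 1 was the lowest of the libraries labelled Nrf2 KO and the highest of the control. The log2 fold change was 0.04 (SE 0.21, edgeR adjusted p = 0.945), with a 95% interval of -0.47 to 0.54. Its sign turned with upper-quartile scaling and without Nrf2 KO replicate 3 or control replicate 2. In mouse transcripts 2 other genes, 1 of them a pseudogene, matched Hspb1 over at least 300 bases at 90% identity or more. Hspb8, whose protein works with BAG3 to send clients to autophagy, had 281.3, 251.9 and 250.7 CPM in libraries labelled Nrf2 KO and 203.8, 233.4 and 213.9 CPM in the control. The groups did not overlap, but the difference was small, with a log2 fold change of 0.27 (SE 0.15, interval -0.10 to 0.63) and an adjusted p of 0.344 by edgeR. Hspb8 passed in 0 of 15 alternatives run and kept its sign in 15.

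In the HSP70 system the inducible gene passed the test and the other 3 members did not. Hspa1a had 8, 13 and 6 counts in libraries labelled Nrf2 KO and 35, 40 and 32 in the control, or 0.255, 0.265 and 0.146 CPM against 0.893, 0.900 and 0.825 CPM. All 3 libraries labelled Nrf2 KO were below all 3 control libraries, and replicate 3 was the lowest of its group in both. The mean was 0.222 ± 0.0661 CPM against 0.873 ± 0.0414 CPM in the control (SD, n = 3 each), with a log2 fold change of -1.96 (SE 0.34, edgeR adjusted p = 0.0210). The level was low in both groups, and the gene was removed by a filter of 1 CPM. The call was lost without Nrf2 KO replicate 2 (edgeR adjusted p = 0.0747) or 3 (0.0863) and without control replicate 1 (0.0943), 2 (0.0997) or 3 (0.117), with log2 fold changes from -2.13 to -1.73. In mouse transcripts Hspa1a is 99.2% identical to Hspa1b over 2201 bases, and the 250 bases before their start sites differ at 3 positions. Hspa1b was not analysed here, so the Hspa1a level is uncertain. Hspa1l, another HSP70 gene, next to this pair and known from testis, was singled out after its values were seen. It had 19, 9 and 6 counts in libraries labelled Nrf2 KO and 43, 26 and 30 in the control, with a log2 fold change of -1.43 (SE 0.60, edgeR adjusted p = 0.207). It was called lower without Nrf2 KO replicate 1 (log2 fold change -2.28, edgeR adjusted p = 0.0124) and without both libraries numbered 1 (-2.002, 0.00566).

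Hspa8, the constitutive HSC70, took the most counts of the 10 genes, with 1464, 1864 and 1953 CPM in libraries labelled Nrf2 KO and 2281, 1917 and 2045 CPM in the control. The groups overlapped, and the libraries numbered 1 lay at opposite ends, lowest in the group labelled Nrf2 KO and highest in the control. The log2 fold change was -0.24 (SE 0.21, interval -0.74 to 0.26, edgeR adjusted p = 0.545). In mouse transcripts 13 other genes, 12 of them pseudogenes, matched Hspa8 over at least 300 bases at 90% identity or more. Its count can thus hold or lose reads of copies. Symbols in the count table follow rat usage, so which copies were counted apart is not known, for Hspa8 or for the other genes. Hsph1, an HSP110 that exchanges nucleotide on HSP70, had 112.4, 258.8 and 237.1 CPM in libraries labelled Nrf2 KO and 138.4, 245.1 and 210.7 CPM in the control. Its libraries numbered 1 were lowest in both groups, the groups overlapped, and the log2 fold change of 0.03 (SE 0.37, interval -0.86 to 0.93) had an adjusted p of 0.971 by edgeR. Its sign turned in 7 of 15 alternatives.

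Dnajb1, the HSP40 that delivers clients to HSP70, had 65.2, 93.0 and 94.3 CPM in libraries labelled Nrf2 KO and 57.4, 69.7 and 67.6 CPM in the control. Number 1 of the libraries labelled Nrf2 KO fell among the control values, and the other two were above them. The log2 fold change was 0.37 (SE 0.19, interval -0.09 to 0.84, edgeR adjusted p = 0.295). Without Nrf2 KO replicate 1 the log2 fold change was 0.52 (SE 0.12) and the adjusted p by edgeR 0.0200, and without both libraries numbered 1 it was 0.45 (SE 0.08) with an adjusted p of 0.00240.

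Hsp90aa1, the inducible HSP90 isoform, had 755.4, 1504 and 1478 CPM in libraries labelled Nrf2 KO and 904.4, 1265 and 1200 CPM in the control. Both libraries numbered 1 were far below the others of their group, and the groups overlapped. The log2 fold change was 0.15 (SE 0.32, interval -0.62 to 0.92, edgeR adjusted p = 0.830). Without both libraries numbered 1 it was 0.28 (SE 0.09, edgeR adjusted p = 0.0431), and without Nrf2 KO replicate 2 it was -0.01. In mouse transcripts 4 other genes, 4 of them pseudogenes, matched Hsp90aa1 by the same limits as for Hspa8, and for Hspd1 there were 5, of them 5 pseudogenes.

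Of the mitochondrial chaperonin pair, Hspe1 passed the test and Hspd1 did not, and their ratio, given with the other ratios, overlapped between the groups. Both genes share the promoter stretch printed for Hspe1. Hspe1, the lid, had 150.5, 163.0 and 165.8 CPM in libraries labelled Nrf2 KO and 401.6, 247.2 and 297.2 CPM in the control. The libraries labelled Nrf2 KO lay close together and below all control libraries, which spread more. The mean was 159.8 ± 8.14 CPM against 315.3 ± 78.8 CPM in the control (SD, n = 3 each), with a log2 fold change of -0.98 (SE 0.22, edgeR adjusted p = 0.0451). The difference between libraries of the same number was -1.42, -0.60 and -0.84 on the log2 scale. The call was near the threshold: it was lost with no filter on low counts (edgeR adjusted p = 0.0558), without Nrf2 KO replicate 2 (0.144) or 3 (0.141), and without control replicate 1 (0.127), 2 (0.0805) or 3 (0.177). Without both libraries numbered 1 the log2 fold change was -0.72 (SE 0.10, edgeR adjusted p = 0.00127). In mouse transcripts 4 other genes matched Hspe1 over at least 300 bases at 90% identity or more, 3 of them pseudogenes.

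Hspd1, the barrel, had 297.2, 815.1 and 791.0 CPM in libraries labelled Nrf2 KO and 582.8, 1132 and 995.8 CPM in the control. Both libraries numbered 1 held the lowest level of their group, and the spread within a group was larger than the difference between the means. The log2 fold change was -0.51 (SE 0.45, interval -1.60 to 0.58, edgeR adjusted p = 0.555). Within a number, all 3 differences were negative, at -0.97, -0.47 and -0.33 on the log2 scale. With the replicate number as a block the adjusted p was 0.0889 by edgeR, and without both libraries numbered 1 it was 0.0145 at a log2 fold change of -0.40 (SE 0.10). Without Nrf2 KO replicate 1 alone the log2 fold change was -0.17 (SE 0.28, edgeR adjusted p = 0.653). Hspa9, the HSP70 of the mitochondrial matrix, was singled out after its values were seen and showed the same spread, with 193.7, 678.4 and 618.8 CPM in libraries labelled Nrf2 KO and 300.4, 612.7 and 514.7 CPM in the control. Its log2 fold change was 0.06 (SE 0.51, edgeR adjusted p = 0.959), and its sign turned in 6 alternatives.

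**Figure D2:**
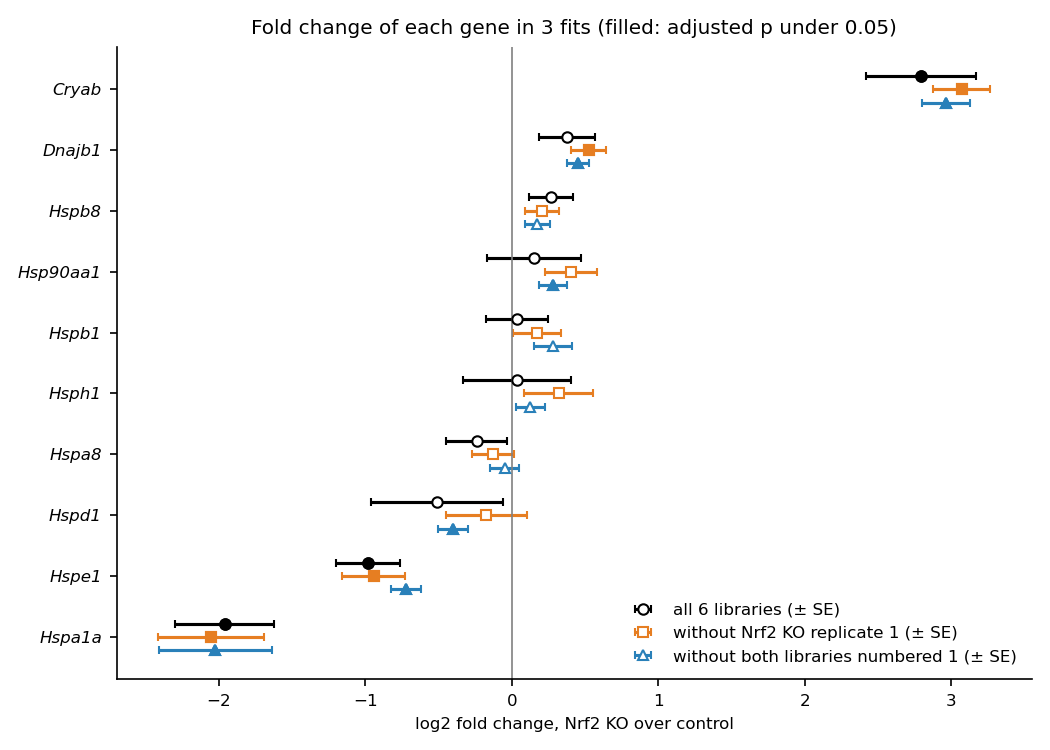
Log2 fold change of each gene, Nrf2 KO over control, with SE, in the fit of all 6 libraries, in the fit without Nrf2 KO replicate 1 and in the fit without both libraries numbered 1. Filled symbols had an adjusted p under 0.05 by edgeR, and Cryab, Hspe1 and Hspa1a are filled in all 3 fits. Dnajb1 is filled in each fit that leaves out a library numbered 1. Hsp90aa1 and Hspd1 are filled only in the fit without both libraries numbered 1.

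The place of the library numbered 1 within its group differed between the 10 genes. For 5 of the 10, Cryab, Hsph1, Dnajb1, Hsp90aa1 and Hspd1, the library numbered 1 was the lowest of its group in both groups, which held for 36.6% of all tested genes. For Hspb1, Hspa8 and Hspe1 it was the lowest of the libraries labelled Nrf2 KO and the highest of the control, and for Hspb8 the reverse. Together the 10 genes made up 0.341%, 0.480% and 0.480% of all counts in libraries labelled Nrf2 KO and 0.469%, 0.520% and 0.506% in the control. Hspa8 gave 46.1%, 37.2% and 38.7% of these counts in libraries labelled Nrf2 KO, and 49.3%, 37.2% and 40.2% in the control. The sources used here do not say what sets the libraries numbered 1 apart.

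Ratios of counts within a library do not depend on the scaling between libraries, and were taken for 6 pairs of partners or related genes. The design of 3 against 3 cannot give an exact permutation p below 0.1, so these ratios show size and overlap and cannot pass a threshold of 0.05. The Hspd1 to Hspe1 ratio was 1.97, 5.0 and 4.77 in libraries labelled Nrf2 KO and 1.45, 4.58 and 3.35 in the control. It was lower in both libraries numbered 1 than in all the others, the groups overlapped, and the difference of the log2 means was 0.36 (two-sided exact permutation p = 0.5, 0.6 adjusted over the 6 pairs). Within each number it was higher in the library labelled Nrf2 KO, by 0.44, 0.13 and 0.51 on the log2 scale (exact sign-flip permutation p = 0.25, the smallest that 3 pairs allow). Without control replicate 1 that difference was -0.12. Of all tested genes, 64.2% had a ratio to Hspe1 that did not overlap between the groups. The Hsph1 to Hspa8 ratio also overlapped, with a log2 difference of 0.23 (exact permutation p = 0.6, adjusted 0.6), and -0.07 without control replicate 1. Within each number it too was higher in the library labelled Nrf2 KO, by 0.34, 0.12 and 0.24 (exact sign-flip permutation p = 0.25).

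For the other 4 pairs the groups did not overlap, each with an exact permutation p of 0.1, the smallest that the design allows, and 0.15 adjusted over the 6 pairs. The Hsp90aa1 to Hsp90ab1 ratio, inducible over constitutive HSP90, was 1.44, 0.744 and 0.774 in libraries labelled Nrf2 KO and 0.567, 0.484 and 0.512 in the control, a log2 difference of 0.85. Number 1 labelled Nrf2 KO was far above the others, and without it the log2 difference was 0.55. Of all tested genes, 31.1% had a ratio to Hsp90ab1 that did not overlap between the groups. The Dnajb1 to Hspa8 ratio was 0.0445, 0.0499 and 0.0483 in libraries labelled Nrf2 KO and 0.0252, 0.0364 and 0.0331 in the control, a log2 difference of 0.61. The Hspa1a to Hspa8 ratio was 0.000174, 0.000142 and 7.47e-05 in libraries labelled Nrf2 KO and 0.000392, 0.000469 and 0.000403 in the control, a log2 difference of -1.71 that rested on the low counts of Hspa1a. Ratios to Hspa8 that did not overlap were found for 34.7% of all tested genes. The Hspb1 to Cryab ratio was 6.64, 3.88 and 4.65 in libraries labelled Nrf2 KO and 43.8, 27.9 and 27.0 in the control, with a log2 difference of -2.69. Since Cryab itself differed between the groups, 93.2% of all tested genes had a ratio to it that did not overlap.

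**Figure D3:**
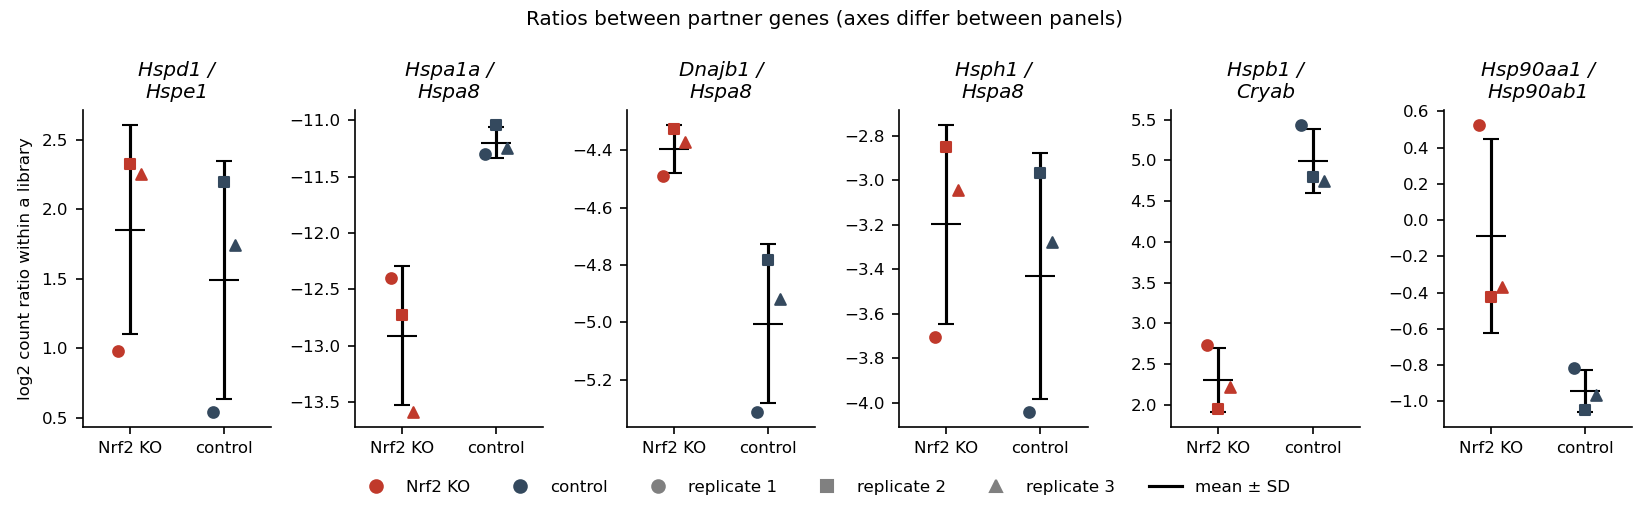
Log2 ratio of the counts of 2 genes within each library for the 6 pairs, with Nrf2 KO left of control and a separate axis in each panel. Points are libraries, with the shape giving the replicate number, and bars are the mean and SD of 3 libraries; the groups overlap for Hspd1/Hspe1 and Hsph1/Hspa8 and not for the other 4 pairs.

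Levels set between genes need a value per length, which the authors' deposited table gives as FPKM, fragments scaled to gene length and library size, with 1 value per group. In the authors' deposited table Hspa8 had the highest level of the 10 genes, with 679.3 FPKM in the group labelled Nrf2 KO and 813.2 FPKM in the control. Hsp90aa1 (361.1 and 331.6 FPKM), Hspd1 (229.4 and 334.0) and Hspe1 (228.9 and 456.1) came next, with the group labelled Nrf2 KO first. Their order in the control was Hspe1, Hspd1 and Hsp90aa1. In the authors' deposited table Hspe1 was next to Hspd1 in the group labelled Nrf2 KO and above it in the control. Hspb8 had 119.8 and 100.3 FPKM, Hsph1 47.8 and 47.6, Hspb1 45.8 and 45.3, and Dnajb1 30.9 and 24.2, again from the authors' deposited table with the group labelled Nrf2 KO first. Cryab had 8.63 FPKM in that group and 1.26 in the control, and Hspa1a 0.0672 and 0.284, so the pair with the largest fold changes were the lowest of the 10 in the authors' deposited table. With 1 value per group, these levels carry no spread, so the order of neighbours such as Hsph1 and Hspb1 was not tested.

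Beyond these 10 genes, 11 lists of other chaperones, cochaperones and their regulators held 103 further genes, of which 95 could be tested. Some lists share genes, so counts per list cannot be added up. Hsp90ab1, for example, is in the list of other HSP90 genes and in that of other genes that HSF1 induces. Of the 95 tested genes, 1 was higher and 3 were lower in libraries labelled Nrf2 KO (4.21% called, against 8.28% of all tested genes). Their median log2 fold change was -0.14. The replicate block gave 2 higher and 7 lower (18.3% of all genes called). Leaving out Nrf2 KO replicate 1 gave 5 and 14 (30.2%), and leaving out both libraries numbered 1 gave 11 and 32 (46.1%). Without any single library other than Nrf2 KO replicate 1, 0 or 1 were higher and 0 lower (1.3% to 2.56% of all genes called). The gene called higher was Dnajc13, a J protein of endosomes, with 241.3, 197.5 and 164.6 CPM in libraries labelled Nrf2 KO and 102.0, 103.8 and 94.8 CPM in the control. Its log2 fold change was 1.00 (SE 0.18, edgeR adjusted p = 0.0251), and it was the call among 17 other cytosolic J proteins. The call was lost without Nrf2 KO replicate 2 and without each of the 3 control libraries.

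The 3 genes called lower act with HSP70 or in mitochondria. Bag1, a nucleotide exchange factor that links HSP70 to the proteasome, was the call among 10 BAG and other HSP70 cochaperones, with 62.2, 64.1 and 66.1 CPM in libraries labelled Nrf2 KO and 108.3, 92.3 and 102.1 CPM in the control. Its log2 fold change was -0.65 (SE 0.13, edgeR adjusted p = 0.0334). Hspa14, an HSP70 relative that works at the ribosome, was the call among 7 other HSP70 and HSP110 genes, with 43.4 ± 4.78 CPM against 71.6 ± 4.74 CPM in the control (SD, n = 3 each) and a log2 fold change of -0.72 (SE 0.15). Clpp, the matrix protease that takes unfolded proteins from CLPX, was the call among 16 mitochondrial chaperones and proteases, with 22.3 ± 5.43 CPM against 57.3 ± 11.1 CPM in the control (SD, n = 3 each) and a log2 fold change of -1.36 (SE 0.25). All 3 lost the call without any single library other than Nrf2 KO replicate 1, and Bag1 and Hspa14 also with no filter on low counts.

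The remaining lists had 0 calls by edgeR with all 6 libraries. Without both libraries numbered 1, where 46.1% of all genes were called, 1 higher and 11 lower were called of the HSP90 cochaperones, 0 and 2 of TRiC, 0 and 4 of prefoldin and 0 and 2 of the other HSP90 genes. In the same fit 0 other small heat shock protein genes, 1 higher and 2 lower of the heat shock factors and regulators, and 4 higher and 5 lower of the other genes that HSF1 induces were called. Counts at an unadjusted p under 0.05 stand against 13.4% of all tested genes higher and 11.6% lower by edgeR. Calls by DESeq2 stand against 19.9% of all tested genes, and calls by limma-voom against 8.57%. Among 16 HSP90 cochaperones 13 log2 fold changes were negative, with a median of -0.36, against 46.4% negative among all tested genes. At an unadjusted p under 0.05 edgeR gave 1 higher and 3 lower, DESeq2 called 0 and 2, and limma-voom 0 and 0. Stip1, which bridges HSP70 and HSP90, had a log2 fold change of -0.58 (SE 0.36), and Ptges3, the cochaperone p23, -0.35 (SE 0.26). Among 8 subunits of TRiC, the cytosolic chaperonin that folds actin and tubulin, 7 values were negative with a median of -0.34, and 1 was lower at an unadjusted p under 0.05 by edgeR, 1 by DESeq2 and 0 by limma-voom. Tcp1 was at -0.32 (SE 0.41) and Cct8 at -0.28 (SE 0.26). Among 6 prefoldin subunits, which hand clients to TRiC, the median was -0.28, with 0 at an unadjusted p under 0.05 by edgeR and 0 called by DESeq2 or limma-voom. Pfdn2 was at -0.14 (SE 0.45) and Pfdn1 at -0.11 (SE 0.22).

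Both other HSP90 genes were negative. Hsp90ab1, the constitutive isoform, had 524.4, 2021 and 1910 CPM in libraries labelled Nrf2 KO and 1594, 2616 and 2345 CPM in the control. Both libraries numbered 1 were the lowest of their group, and the log2 fold change was -0.56 (SE 0.52, edgeR adjusted p = 0.580). Trap1, the HSP90 of mitochondria, was at -0.48 (SE 0.16), with an adjusted p of 0.115 by edgeR (0.0187 unadjusted, the 1 of the pair under 0.05), and DESeq2 called 1 of the pair lower and limma-voom 0. Of 8 other small heat shock protein genes 4 could be tested, with 0 at an unadjusted p under 0.05 by edgeR and 0 called by DESeq2 or limma-voom. Hspb6 was at 0.05 (SE 0.30) and Hspb11 at -0.48 (SE 0.21), and Cryaa, the lens partner of Cryab, had 0 counts in all libraries.

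The heat shock factors were not called with all 6 libraries. Among 6 tested factors and regulators edgeR gave 0 higher and 1 lower at an unadjusted p under 0.05, DESeq2 0 and 1, and limma-voom 0 and 0. Hsf1, singled out after its values were seen, had a log2 fold change of 0.48 (SE 0.26, edgeR adjusted p = 0.332), and Hsf2 0.19 (SE 0.13). Without Nrf2 KO replicate 1 the value of Hsf1 was 0.16 (edgeR adjusted p = 0.407), and without both libraries numbered 1 it was 0.28 and called (0.0410). Hsbp1, a small protein that binds HSF1, was at -0.57 (SE 0.17, edgeR adjusted p = 0.0988), and it was called lower by DESeq2 (adjusted p = 0.0122), without Nrf2 KO replicate 1 (-0.45, edgeR 0.0237) and without both libraries numbered 1 (-0.41, edgeR 0.00518). Among 16 tested genes from a list of others that HSF1 is known to induce, 5 values were positive and 11 negative, with a median of -0.13. At an unadjusted p under 0.05 edgeR gave 1 higher and 2 lower, DESeq2 called 0 and 1, and limma-voom 0 and 0. Serpinh1, the collagen chaperone HSP47, was at -0.08 (SE 0.24).

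**Figure D4:**
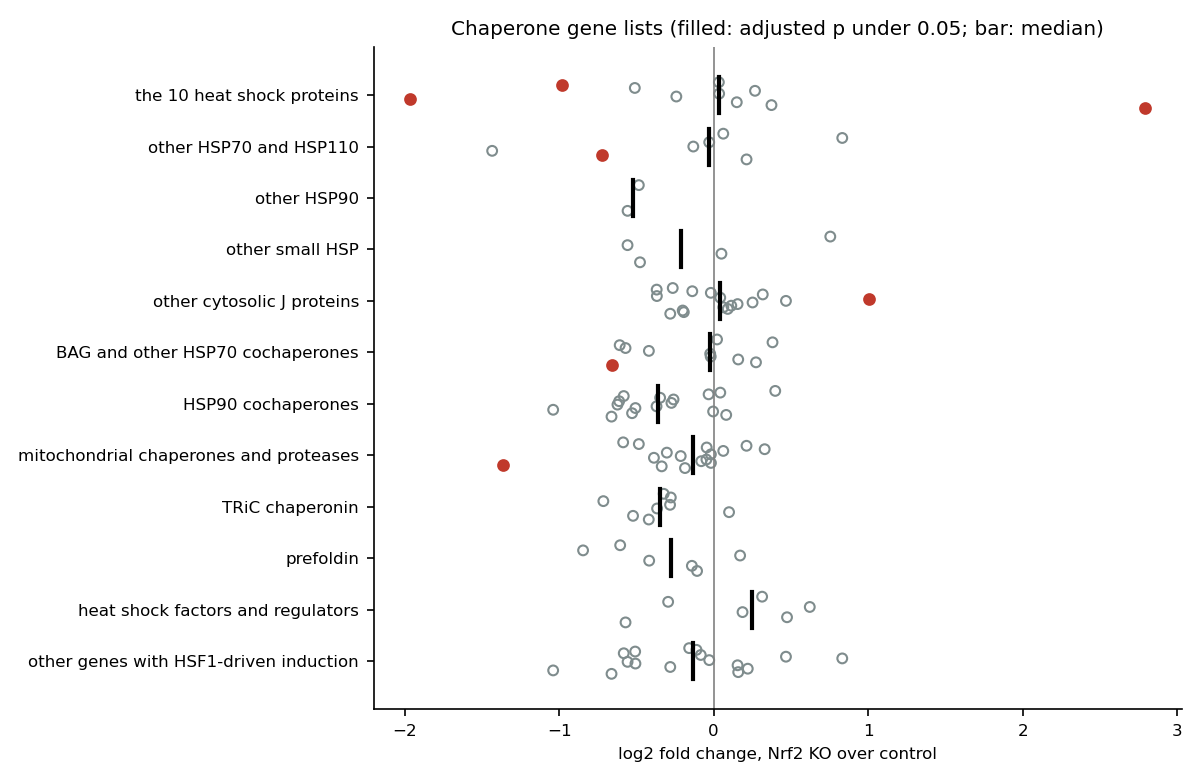
Log2 fold change, Nrf2 KO over control, of each tested gene in the 10 heat shock proteins and in the 11 lists of other chaperone genes. Filled points had an adjusted p under 0.05 by edgeR and bars are medians; 3 of the 10 heat shock proteins are filled, and among the other lists Hspa14, Dnajc13, Bag1 and Clpp.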

How the data were processed

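The authors' deposited count table holds whole-number counts per gene symbol for 6 libraries. The build hg18 and the tools HISAT2, fastp, FastQC and DESeq2 1.34.0 are named without roles, per the submitters' processing notes. The sources used here give no counter, strand setting or annotation. Symbols follow rat usage (650 begin with RGD, 10844 with LOC), which could shift levels between genes more than ratios of a gene between groups, and reads of antisense or near-identical genes may be split. The authors' deposited FPKM table gives 1 FPKM value per group, and the sources used here do not say how it was made.

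The test was edgeR 4.0.16 under R 4.3.3 on the deposited counts: filterByExpr (minimum count 10, minimum total count 15), TMM scaling, robust quasi-likelihood fit, group as the only term, two-sided, Benjamini-Hochberg adjustment over 14618 genes, threshold 0.05. CPM are TMM-scaled, and errors are SD over 3 libraries or the SE of the fit. Intervals use a 95% level and the fit's degrees of freedom. Count ratios used an offset of 0.5. Copies were searched with BLAST 2.17.0 in GENCODE M21 transcripts, and promoters are from RefSeq. The alternatives were 3 other scalings, DESeq2 1.42.0, limma 3.58.1 (voom), other filters, the replicate block, and fits without libraries.

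The members, lists and alternatives were chosen with earlier results of these data known. From each list the text names at most 3 called genes, by smallest p, or with 0 calls the 2 of highest CPM. Hspa1l, Hspa9, Hsf1, Cryaa, Col3a1, Tek, Vwf and the markers at 0 counts lie outside that rule. Within a group no pair of libraries was as close as sampling noise (lowest chi-square per degree of freedom 12.2). Deviations from the group mean correlated at 0.754, 0.696 and 0.310 across genes for libraries of the same number, over the limit of 0.1. The value was 0.539 between Nrf2 KO library 3 and control library 2, and 0.278 between Nrf2 KO library 2 and control library 3. These deviations sum to 0 within a group, and number 1 stood apart in both groups. The values therefore cannot show that libraries 2 and 3 pair by number. The replicate block, the sign-flip test and the differences within a number took the numbers as pairs, which the labels do not give. The labels do not say that replicates were separate cultures, and the spread that the p-values measure may be technical.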

Additional observations from a re-analysis of the deposited data

How the results depend on the processing

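Genes higher and lower numbered 706 and 505 with all libraries, 1598 and 1318 by DESeq2, 1520 and 1158 with the replicate block, 3540 and 3253 without both libraries numbered 1, and 139 to 2323 and 57 to 2162 without 1 library. Of the 10 heat shock genes, 1 was higher and 2 lower, with 1 lower without a filter on low counts or with a filter of 1 CPM, 3 higher and 3 lower without both libraries numbered 1, and 0 to 2 higher and 0 to 2 lower without 1 library. The other chaperone genes had 1 higher and 3 lower, 9 lower by DESeq2, 1 lower without a filter, 2 and 7 with the block, 11 and 32 without both libraries numbered 1, and 0 to 5 and 0 to 14 without 1 library. The replicate block changed no call among the 10 heat shock genes. The cause of these changes between fits was not tested.

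Without 1 library the log2 difference ranged from -0.12 to 0.80 for the Hspd1 to Hspe1 ratio and from -0.075 to 0.48 for Hsph1 to Hspa8, and the other 4 ratios kept their sign in every alternative run. Log2 fold changes of uncalled genes turned sign as follows. With upper-quartile scaling Hspb1 was at -0.030, Hsph1 at -0.029, Hspb6 at -0.0024 and Hspa9 at -0.0037. Hsph1 was at -0.0073 with library size alone, -0.036 by limma-voom and -0.017 with the block, and Hspa9 at -0.10 by limma-voom and -0.071 with the block. Without both libraries numbered 1 Hspb6 was at -0.043, Pfdn1 at 0.15 and Serpinh1 at 0.029. Without 1 library the ranges were -0.13 to 0.17 for Hspb1, -0.18 to 0.32 for Hsph1, -0.0072 to 0.41 for Hsp90aa1, -0.27 to 0.27 for Hspb6, -0.53 to 0.0046 for Tcp1, -0.76 to 0.14 for Pfdn2, -0.24 to 0.069 for Pfdn1, -0.21 to 0.090 for Serpinh1 and -0.23 to 0.44 for Hspa9. The low counts of Hspa1a limit how well its change is known.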
